A study of Caenorhabditis elegans with 36 samples.

Results

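Of the 36 libraries of the study, 6 came from worms fed *cco-1* RNAi bacteria and collected late in adulthood, 3 at day 9 and 3 at day 11. They were chosen by their labels and not by any measured value. All were whole wild-type *C. elegans* of the N2 strain, fed a mixture of 50% bacteria making double-stranded RNA against *cco-1* and 50% control bacteria. The 6 libraries of worms on empty vector (ev) bacteria at the same days served as the comparison, and they carried no RNAi target. Each library was made from polyA-enriched RNA of a pool of synchronized worms, and the study describes the 3 libraries of a group as biological replicates. The days of adulthood stand in the sample titles and in the paper. The protocol in the labels instead gives every sample as L4 or young adult worms after 2.5 days of RNAi at 20 °C, and the days in the titles were used here.

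*cco-1* encodes a nuclear subunit of cytochrome c oxidase, complex IV of the mitochondrial respiratory chain. Its knockdown from early life lowers respiration, induces mitochondrial chaperones and lengthens the life of the worm. In old worms the intestine, which makes the yolk proteins (vitellogenins), stores fat and produces digestive and lysosomal proteases, is known to deteriorate, as is the body wall muscle. The comparison of day 11 with day 9 asks whether the change of the transcriptome with age went on in these worms or stalled.

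The values were CPM (read counts scaled to a common library total) that the authors had normalized, and 15713 of 18949 genes reached 1 CPM in at least 3 of the 36 libraries and were tested. Library sums lay between 924734 and 948994 CPM in the 6 libraries. Read depth is not given with these values, so no counting interval can be had. Markers of the main tissues were present, with 15 of 16 intestine, 15 of 15 body wall muscle, 14 of 14 hypodermis, 16 of 17 neuron and 18 of 18 germline genes among those tested. The summed level of 12 embryo genes was 139 to 159 CPM in the 12 libraries of days 9 and 11. The knocked-down gene itself differed little between the ages. *cco-1* stood at 87.8, 77.8 and 84.8 CPM in replicates 1 to 3 of day 9 and at 90.8, 89.1 and 87.2 CPM at day 11. In ev worms it stood at 127, 131 and 127 CPM at day 9 and 132, 158 and 154 CPM at day 11. Every *cco-1* RNAi library was below every ev library.

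From day 9 to day 11 no gene changed in *cco-1* RNAi worms by the rule used here, an absolute log2 fold change (log2FC) above 0.5 with a Benjamini-Hochberg adjusted P below 0.05 in limma on log2(CPM + 1). The 15713 genes gave 0 calls (0%), and the smallest adjusted P was 0.378. At an unadjusted P under 0.05 there were 1312 genes (8.35%), of which 733 (4.66%) were higher and 579 (3.68%) lower at day 11. Only 39 genes had a fold change past the size threshold at all, 31 higher and 8 lower. When the spread was instead estimated over all 36 libraries, 24 genes were called higher (0.153%) and 5 lower (0.0318%), 0.185% in all. With replicate number added to the fit on 6 libraries as a block, 29 genes were called higher and 6 lower. No gene named in this account had an adjusted P below 0.378 for its day 9 to 11 change in *cco-1* RNAi worms in the limma fit on 6 libraries without this block.

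The same interval changed many genes in ev worms. There 1493 genes were called (9.5%), 411 higher (2.62%) and 1082 lower (6.89%) at day 11, and 8422 genes (53.6%) had an unadjusted P under 0.05. In 8524 genes (54.2%) the 3 day 11 values did not overlap the 3 day 9 values, against 2492 genes (15.9%) in *cco-1* RNAi worms. Over all genes, *cco-1* RNAi worms had a median absolute log2FC of 0.092 with a median standard error of 0.11. Ev worms had a median absolute log2FC of 0.17 with a median standard error of 0.083.

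The earlier steps give the scale of the last interval. In *cco-1* RNAi worms 6959 genes (44.3%) were called between days 1 and 3, 1263 (8.04%) between days 3 and 5, 396 (2.52%) between days 5 and 7, and 4191 (26.7%) between days 7 and 9. The ev worms gave 8214 (52.3%), 3348 (21.3%), 1696 (10.8%) and 5297 (33.7%) over the same steps. The step from day 7 to day 9 used the same day 9 libraries as the step to day 11, and its median standard error was similar (0.11). Its median absolute log2FC, however, was 0.26. Neighbouring steps share libraries, so their values are given side by side without a test of one against the other.

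**Figure D1:**
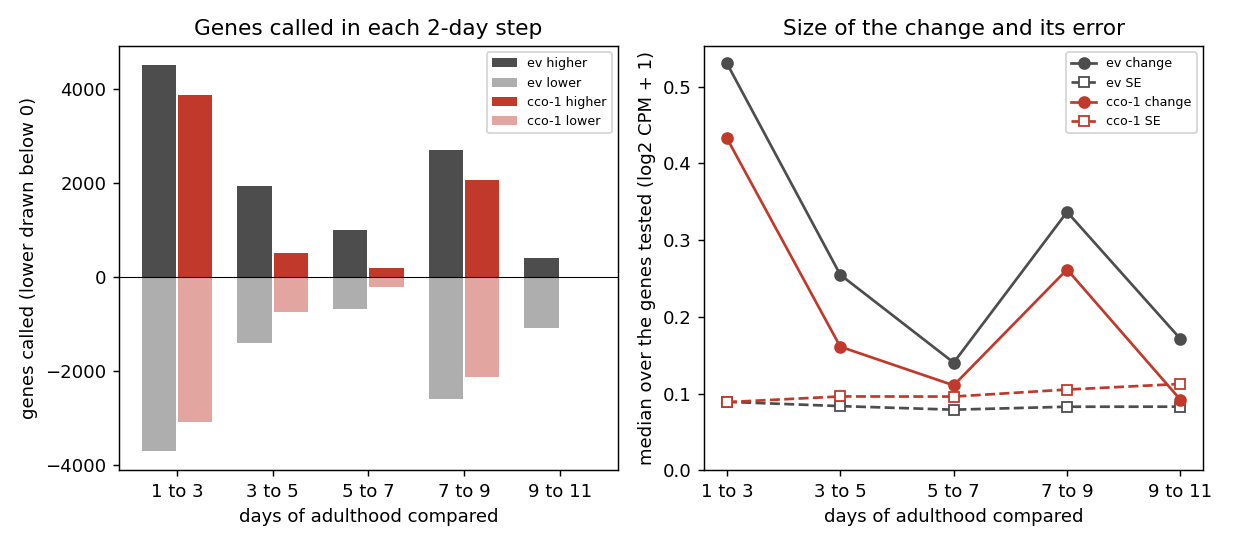
Genes called in each 2-day step (left: number of genes, higher above 0 and lower below 0) and the median absolute log2FC with its median standard error over 15713 genes (right, log2 scale), for ev (grey) and *cco-1* RNAi worms (red). The *cco-1* RNAi bar is at 0 for days 9 to 11, where the median change (0.092) was below its standard error (0.11), whereas 4191 genes were called from day 7 to day 9.

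The confidence intervals bound the change of most genes only to within the size threshold of 0.5. That threshold is wide beside the usual change. In ev worms the median absolute log2FC was 0.17, and 1497 genes passed 0.5. An interval within 0.5 can thus still hold a change of the usual ev size. For 13228 of the 15713 genes (84.2%), the 95% confidence interval of the day 9 to 11 log2FC lay entirely within the size threshold of 0.5 in both directions. For the remaining genes the 3 replicates do not bound the change within that threshold, and the genes with the widest spread are among them. A comparison of 3 libraries with 3 cannot reach an exact permutation p below 0.1 for a single value, so the fit across genes carries the test here.

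Libraries of the same day differed as much as libraries of different days. The median absolute difference between a pair of *cco-1* RNAi libraries, over all genes tested, was 0.118 to 0.169 on the log2 scale within day 9 and 0.112 to 0.173 within day 11. Between days, the 9 pairs gave 0.089 to 0.21, with a median of 0.134. The smallest of these distances lay between days. In ev worms the pairs within a day gave 0.075 to 0.096, and all 9 pairs between days were farther apart, at 0.172 to 0.201.

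In a principal component analysis of the 6 libraries, the first component held 56.5% of the variance and separated replicate 2 from replicate 1 at both ages. Its scores were -14.1, 22.8 and -0.27 for replicates 1 to 3 of day 9, and -19.8, 16 and -4.63 at day 11 (exact permutation test between days, two-sided, p = 0.7). The second component held 20.0% of the variance and separated the days, with scores of -12.1, -10.4 and -1.58 at day 9 and 5.91, 13 and 5.24 at day 11 (p = 0.1, the smallest the exact test allows). In ev worms the first component, with 71.4% of the variance, separated the days, from -22.3 to -16.6 at day 9 and from 19.3 to 19.9 at day 11.

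**Figure D2:**
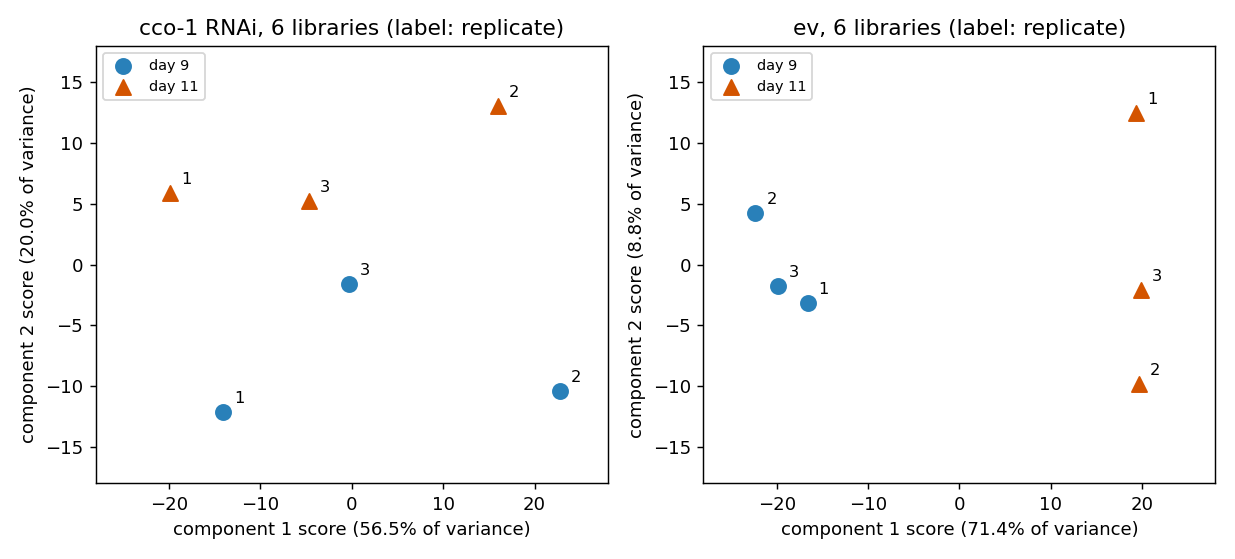
Scores on the first and second principal component of log2(CPM + 1) for the 6 *cco-1* RNAi libraries (left) and the 6 ev libraries (right), fitted separately; the number beside each point is the replicate, circles are day 9 and triangles day 11. On the first component replicate 2 of the *cco-1* RNAi worms stands at 22.8 and 16 and replicate 1 at -14.1 and -19.8, whereas the ev libraries split by day.

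The genes that set the replicates apart recurred at both ages. The standard deviation over the 3 replicates exceeded 0.5 on the log2 scale in 226 genes at day 9 and 210 at day 11, against 8 and 12 genes in ev worms. The median standard deviation over all genes was 0.119 and 0.115 in the *cco-1* RNAi groups and 0.075 and 0.076 in the ev groups. Of the 141 genes past 0.5 at both ages, replicate 2 held the lowest value in 141 at day 9 and in 141 at day 11, and replicate 1 the highest in 140 and 141. The labels give no batch, plate or date for the replicates, and where the shared order of replicates 1 and 2 came from was not tested.

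*icl-1*, which encodes the glyoxylate cycle enzymes isocitrate lyase and malate synthase that turn fat into sugar precursors (chromosome V, 724332 to 728004 on WBcel235), was the clearest example. It stood at 627, 137 and 419.7 CPM in replicates 1 to 3 of day 9 and at 791, 152 and 492 CPM at day 11. Replicate 2 was low and replicate 1 high at both ages, and the days overlapped almost fully (log2FC 0.24, SE 0.90, 95% confidence interval -2.15 to 2.62). *acs-2*, an acyl-CoA synthetase of fat breakdown, stood at 28.97, 5.63 and 19.7 CPM at day 9 and at 34.7, 5.099 and 25.7 CPM at day 11. The cuticle collagen *col-140* gave 112, 25.6 and 70.6 CPM and 158, 35.7 and 91.2 CPM. Other genes with the widest spread were the collagens *col-106*, *col-122*, *col-178*, *col-181* and *col-184*, and the lysosomal mannosidase gene *aman-1*. None of the genes named in this paragraph had a log2FC above 0.5 or below -0.5 from day 9 to day 11.

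Most genes with this wide spread were genes that fell with age in ev worms. Of the 226 genes past 0.5 at day 9, 173 (76.5%) were among the 1082 genes that fell in ev worms from day 9 to day 11, and these 173 made up 15.99% of the 1082. At day 11 it was 177 of 210 (84.3%), or 16.36% of the 1082. Over all genes tested, the genes that fell in ev worms were 6.89%. The ev and *cco-1* RNAi values come from separate libraries.

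As a group, the 1082 genes that fell in ev worms (median log2FC -0.69 there) did not move together between the days in *cco-1* RNAi worms. Their median log2FC was 0.0036, with 51% of them above 0, and the median over all 15713 genes was -0.0067. The replicates spread around this value. Relative to the day 9 mean, the median of these genes stood at 0.25 in replicate 1, -0.27 in replicate 2 and 0.053 in replicate 3 of day 11. Their median deviation from the day mean was 0.26, -0.28 and 0.024 in replicates 1 to 3 of day 9. The replicates of both ages covered a similar range, and the lowest day 11 median was -0.27. For 467 of the 1082 genes the confidence interval lay within 0.5 of no change, and for the others it reached past it. These genes were selected in the ev libraries, which favours a larger change there. In the reverse selection, the 28 genes with a log2FC above 0.5 and an unadjusted P under 0.05 in *cco-1* RNAi worms had a median of 0.56 there and 0.14 in ev worms. The 6 genes below -0.5 by the same rule had a median of -0.57 there and a lower one of -0.77 in ev worms.

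The 411 genes that rose in ev worms (median 0.57 there) had a median log2FC of 0.069 in *cco-1* RNAi worms, and 67.6% were above 0. With 1 *cco-1* RNAi library left out, this median ranged from 0.0075 to 0.13. Replicates 1 to 3 of day 11 gave -0.011, 0.16 and 0.034 for these genes against the day 9 mean.

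**Figure D3:**
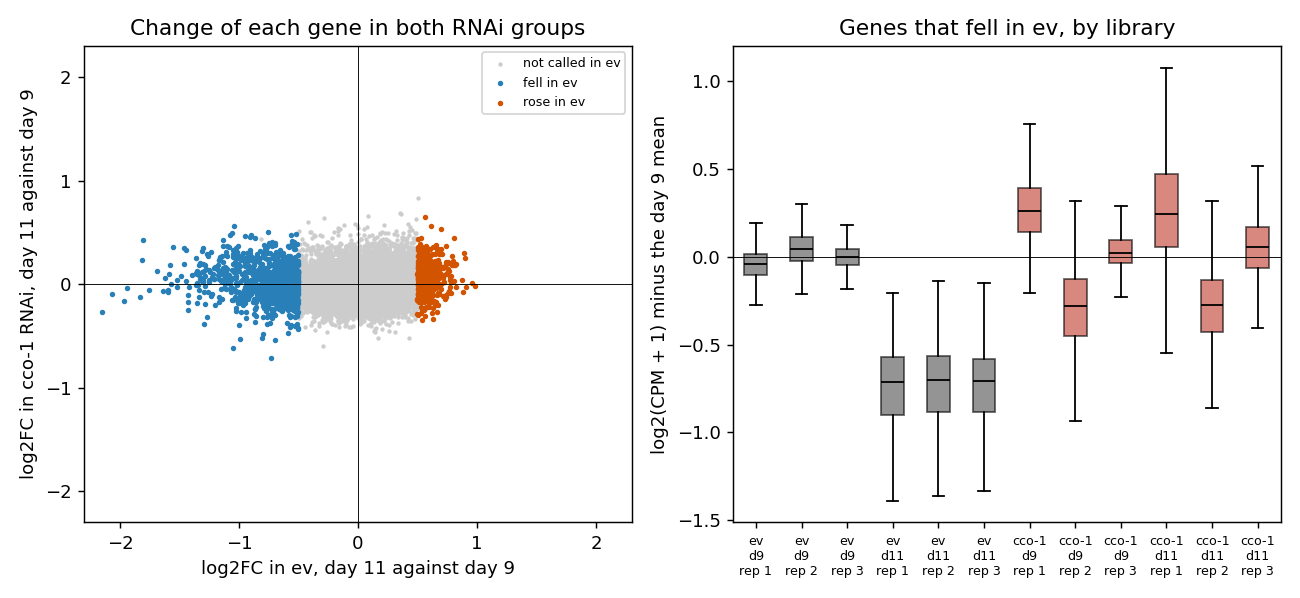
Left: log2FC of day 11 against day 9 of each gene in *cco-1* RNAi worms (vertical) and ev worms (horizontal), with the 1082 genes that fell and the 411 that rose in ev worms in colour. Right: log2(CPM + 1) of the 1082 genes minus the day 9 mean of the same RNAi group, by library (box: middle 50% of genes, line: median, whiskers: the farthest genes within 1.5 box lengths); the ev day 11 boxes lie near -0.7, and the *cco-1* RNAi boxes follow the replicate, high in replicate 1 and low in replicate 2 at both ages.

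Whether the age change differed between the RNAi groups was tested directly, with an interaction term in 12 libraries and a variance weight for each group. It was called for 663 genes (4.22%). The interaction was positive for 478 of them (3.04%), meaning a higher change under *cco-1* RNAi, and negative for 185 (1.18%). Of the 478, 383 were genes called lower in ev worms, against 6.89% of all genes tested. Of the 185, 98 were called higher in ev worms, against 2.62%. The interaction subtracts the ev change measured in the same ev libraries, so such an overlap is largely built in and is no separate support. The number of calls rested heavily on single libraries: it ranged from 116 without replicate 3 of *cco-1* day 11 to 1768 without replicate 2 of *cco-1* day 11, with more positive than negative interactions each time.

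Calls in the gene lists below are to be read against the shares over all genes tested. These were 2.62% called higher and 6.89% lower in ev worms, and 4.22% for the difference between the changes. Of all gene lists the vitellogenins had the lowest median in ev worms. All 6 fell in ev worms, with a median log2FC of -1.89, and in *cco-1* RNAi worms the median was -0.08. For 3 of 6, *vit-2*, *vit-5* and *vit-6*, the difference between the changes was called. *vit-6* (chromosome IV, 8261157 to 8266459) stood at 25809, 14724 and 25809 CPM at day 9 and at 25809, 11951 and 25809 CPM at day 11 in *cco-1* RNAi worms. In ev worms it went from 4771, 5419 and 6750.2 CPM to 1399, 1328 and 1281 CPM. The ev ages did not overlap, whereas in *cco-1* RNAi worms replicates 1 and 3 held the 2nd rank and the same value at both ages (log2FC -0.10, 95% confidence interval -1.22 to 1.02).

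*vit-2* (chromosome X, 5101042 to 5106169) was the most abundant transcript in 5 of the 6 *cco-1* RNAi libraries and the 2nd in replicate 2 of day 11. Its values were 29967, 25809 and 29967 CPM at day 9 and 29967, 14724 and 29967 CPM at day 11. In ev worms it fell from 8371, 8371 and 11951 CPM to 2264, 2129 and 1999 CPM. At the top ranks the deposited values are a few figures that recur across libraries, the highest being 29967 CPM, so *vit-2*, *vit-5* and *vit-6* could take only such figures in *cco-1* RNAi worms. The changes of these 3 genes and their differences between the RNAi groups carry this limit. An exon of *vit-2* overlaps another gene, *C42D8.9*, and the counting did not use strand.

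The aspartic proteases, digestive and lysosomal enzymes of the intestine, followed. Of 12 members tested, 11 fell in ev worms (median log2FC -1.2), and the median in *cco-1* RNAi worms was 0.07, with 10 of 12 above 0. The difference between the changes was called for 5 of them. *asp-1* (chromosome V, 19049562 to 19050752) stood at 1578, 791 and 1419 CPM at day 9 and at 1999, 1124 and 1677 CPM at day 11. In ev worms it stood at 414, 391 and 443 CPM and then at 128, 150.3 and 144 CPM. The ages overlapped (log2FC 0.36, SE 0.36, 95% confidence interval -0.59 to 1.32). The difference from the ev change was 1.92 on the log2 scale (adjusted P = 0.0218, limma). *asp-6* gave 3223, 2218 and 2731 CPM and 3345, 2347 and 2801 CPM, and the difference from its ev change was 1.36 (adjusted P = 0.0113, limma).

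Cysteine cathepsins and other lysosomal hydrolases had smaller values. In the cathepsin B family 4 of 10 genes fell and 1 rose in ev worms, and the median was 0.15 under *cco-1* RNAi, beside -0.34 in ev. *cpr-5*, a cathepsin B gene, read 55.7, 36.4 and 48.1 CPM at day 9 and 65.5, 49.6 and 55.4 CPM at day 11 (log2FC 0.29, SE 0.16, 95% confidence interval -0.09 to 0.67). Its values in ev worms were 8.80, 9.498 and 7.77 CPM and 6.10, 6.72 and 7.13 CPM, and the difference between the changes was 0.63 (adjusted P = 0.0475, limma). Of 9 cathepsin L, Z and F genes 5 fell in ev worms, and the medians were -0.67 and 0.04. *cpl-1*, the main cathepsin L of the worm, gave 639.5, 287 and 530.4 CPM and 832, 393 and 646 CPM in *cco-1* RNAi worms, again with replicate 2 lowest at both ages. *cpr-8*, a cathepsin B gene at a low level, had lower values at day 11 without overlap, with 2.19, 2.05 and 2.27 CPM at day 9 and 1.76, 1.68 and 1.66 CPM at day 11 (log2FC -0.23, SE 0.10, 95% confidence interval -0.46 to -0.0043). Of 8 cathepsin A genes 4 fell in ev worms (median -0.56). Under *cco-1* RNAi the median was -0.09, with 2 of 8 above 0, and no difference between the changes was called.

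Of 35 lysosomal lipases and other hydrolases 16 fell in ev worms (median -0.47), and the median in *cco-1* RNAi worms was 0.04. The difference between the changes was called for 13 of the 35, each time higher in *cco-1* RNAi worms. *nuc-1*, the lysosomal DNase II, stood at 22.2, 16.6 and 21.1 CPM at day 9 and 24.04, 18.6 and 19.5 CPM at day 11. Replicate 1 was highest and replicate 2 lowest at both ages. In ev worms *nuc-1* stood at 26.1, 28.3 and 26.9 CPM and then at 17.6, 15.9 and 15.6 CPM. Its difference was 0.75 (adjusted P = 0.00755, limma). The 21 subunits of the V-ATPase, the proton pump that acidifies lysosomes, had a median of 0.02 under *cco-1* RNAi, beside -0.14 in ev. In ev worms 1 of the 21 fell, against 6.89% of all genes tested.

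Among *cco-1* RNAi worms, tissue markers of intestine and muscle ranked replicate 1 highest and replicate 2 lowest at both ages. The summed level of the 15 intestine markers was 1455 to 2741 CPM at day 9 and 1875 to 3359 CPM at day 11, and in ev worms it was 908 to 945 CPM and then 407 to 451 CPM. The mean of the 15 genes, as a deviation from their 6-library mean on the log2 scale, was 0.17, -0.38 and -0.013 in replicates 1 to 3 of day 9 and 0.32, -0.21 and 0.11 at day 11. The 15 body wall muscle markers summed to 1252 to 1814 CPM at day 9 and 1194 to 2044 CPM at day 11. *unc-15*, the muscle paramyosin, stood at 209, 113.4 and 170.1 CPM and 260.2, 124 and 195 CPM, low in replicate 2 at both ages. Markers of hypodermis, pharynx and neurons shared this order of replicates 1 and 2. The germline markers summed to 5614 to 6121 CPM and 5413 to 5978 CPM, with replicate 2 highest and replicate 1 lowest at both ages. Their mean deviation was -0.091, 0.12 and 0.0037 in replicates 1 to 3 of day 9 and -0.11, 0.083 and -0.0051 at day 11. The 22 sperm genes instead ranked replicate 1 highest and replicate 2 lowest at both ages. Their mean deviation was 0.021, -0.22 and 0.0054 at day 9 and 0.28, -0.16 and 0.085 at day 11. In RNA of whole worms, fewer cells of a tissue and less RNA per cell cannot be told apart.

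Innate immunity and detoxification genes, many of them made in the intestine, had medians near 0 in *cco-1* RNAi worms. Of 49 lysozymes and antimicrobial peptides 28 fell in ev worms (median -0.65), and the median in *cco-1* RNAi worms was 0.06. *lys-7*, an antibacterial lysozyme, read 1934, 846 and 1478 CPM at day 9 and 2067, 946 and 1511 CPM at day 11. Of 122 C-type lectins 33 fell and 1 rose in ev worms, and the difference between the changes was called for 18, of which 16 were higher in *cco-1* RNAi worms. *clec-84* was a lectin whose *cco-1* RNAi ages did not overlap, with 12.55, 9.71 and 12.27 CPM at day 9 and 19.2, 14.3 and 16.16 CPM at day 11 (log2FC 0.49, SE 0.14, 95% confidence interval 0.18 to 0.80). Of 61 UDP-glucuronosyltransferases 24 fell in ev worms (median -0.37), and the median in *cco-1* RNAi worms was -0.03.

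Genes encoded by mitochondrial DNA had a negative median in both RNAi groups. The list holds 11 genes of respiratory complexes and of the ATP synthase, and all 11 had a log2FC below 0 in *cco-1* RNAi worms (median -0.47). None passed the adjusted test on 6 libraries. In 10 of 11 the unadjusted P was under 0.05, all lower, against 3.68% of all genes tested. In 7 of 11 every day 11 value was below every day 9 value, which held for 7.73% of all genes tested. In ev worms 10 of 11 fell (median -0.94).

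*atp-6*, a membrane subunit of the ATP synthase (mitochondrial genome, 2634 to 3235), stood at 219.9, 215 and 174 CPM at day 9 and at 157, 111 and 131 CPM at day 11 (log2FC -0.62, SE 0.14, 95% confidence interval -0.94 to -0.29). The complex I subunit gene *nduo-1* gave 48.0, 48.996 and 39.8 CPM and 35.4, 27.8 and 30.8 CPM (log2FC -0.53, SE 0.11, 95% confidence interval -0.78 to -0.28). *nduo-4*, another complex I subunit, gave 67.1, 87.6 and 68.1 CPM and 55.2, 49.3 and 49.2 CPM (log2FC -0.52, SE 0.11, 95% confidence interval -0.76 to -0.28). In each of the 3 genes the ages did not overlap. *ctc-1*, the catalytic subunit of complex IV, was the most abundant of the list, with 704, 741 and 591 CPM and 593, 455 and 503 CPM, and its ages overlapped by a narrow margin.

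In ev worms *nduo-1* fell from 97.9, 111 and 103 CPM to 56.2, 49.2 and 50.0 CPM. The difference between the changes was called for 2 of the 11 genes, *ctb-1* and *ctc-2*, both with the less negative log2FC in *cco-1* RNAi worms. When the spread was estimated over all 36 libraries, *atp-6*, *nduo-1*, *nduo-4* and *nduo-5* were called lower in *cco-1* RNAi worms, as was *MTCE.33*, a mitochondrial ribosomal RNA. *MTCE.7*, the other mitochondrial ribosomal RNA, stood at 88.7, 86.3 and 72.5 CPM at day 9 and 59.7, 61.9 and 60.7 CPM at day 11. The mitochondrial genes *nduo-1* and *atp-6* overlap at their ends, and in union mode without strand a read across the overlap is assigned to neither.

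**Figure D4:**
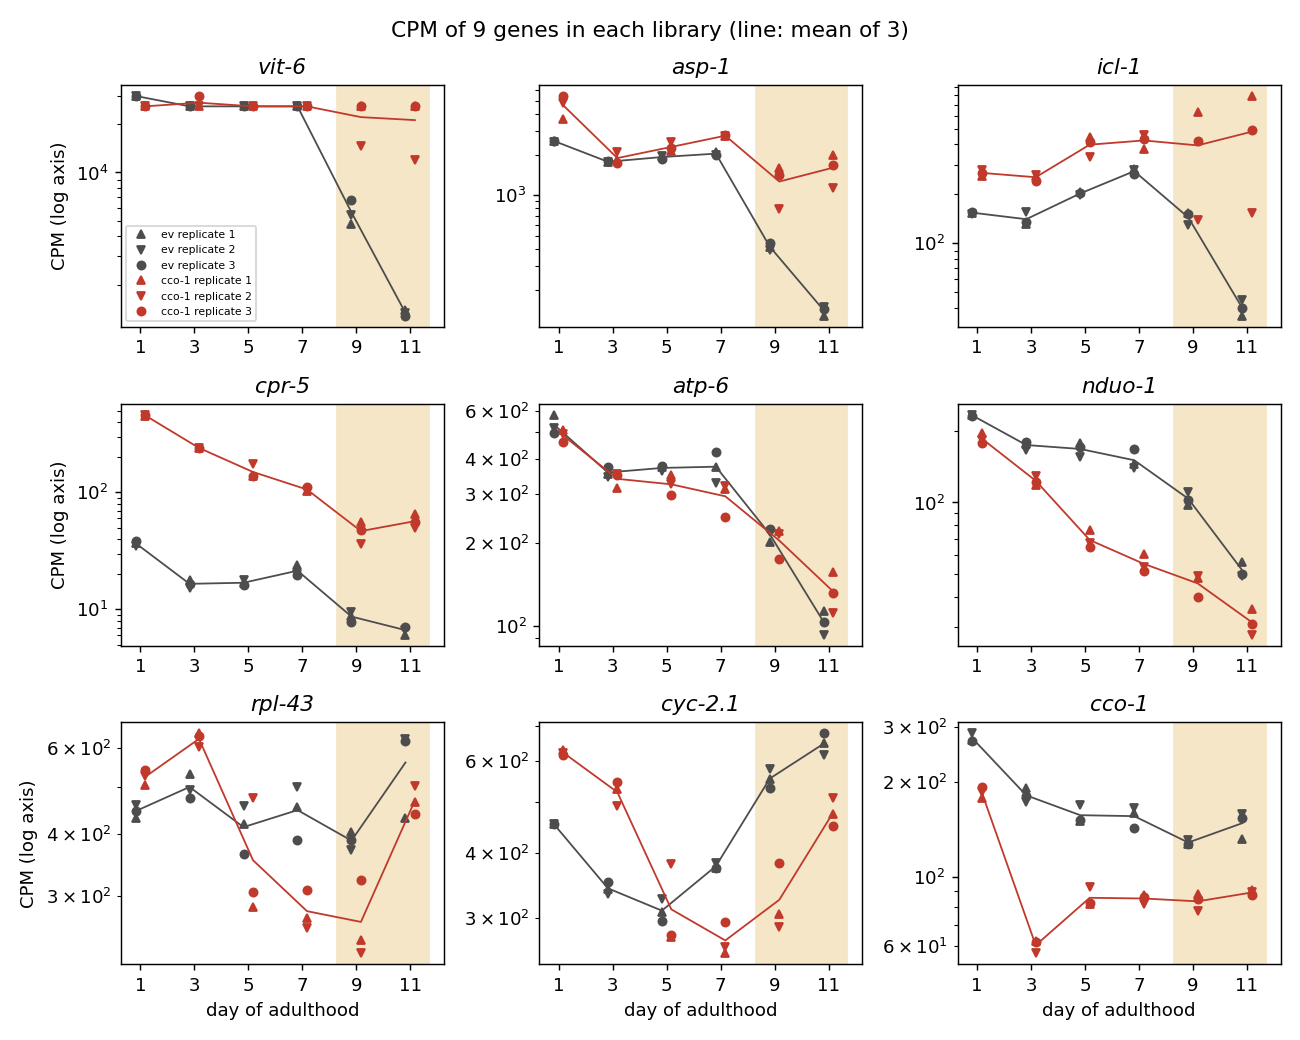
CPM (log axis, a different range in each panel) of 9 genes in each library by day of adulthood, in ev (grey) and *cco-1* RNAi worms (red); symbols are replicates, lines join the means of 3, and days 9 and 11 are shaded. The intestinal genes *vit-6*, *asp-1* and *icl-1* drop in ev worms from day 9 to day 11 and split by replicate in *cco-1* RNAi worms, whereas *atp-6* and *nduo-1* are lower at day 11 than at day 9 in both.

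Genes of the cytosolic ribosome, the proteasome and the nuclear-encoded respiratory chain had small positive medians. Of 80 cytosolic ribosomal protein genes, 62 had a log2FC above 0 (median 0.11). In 33 the unadjusted P was under 0.05, all higher, against 4.66% of all genes tested. In 34 the ages did not overlap with day 11 higher, against 8.13% of all genes tested. In 3 of the 80 they did not overlap with day 11 lower. None passed the adjusted test. *rpl-43* (chromosome II, 14155294 to 14155569), which encodes a protein of the large subunit, had the largest log2FC of all genes: 243, 229 and 323 CPM at day 9 and 465, 502 and 441 CPM at day 11 (log2FC 0.83, SE 0.13, 95% confidence interval 0.54 to 1.13, 1.78-fold). *rps-21* gave 476, 446 and 643 CPM and 869, 815 and 795 CPM (log2FC 0.68, SE 0.13, 95% confidence interval 0.38 to 0.98). *rpl-39* gave 234, 197 and 273 CPM and 389, 348 and 357 CPM, and its exons overlap *grl-10*, so that reads there cannot be told apart without strand. *rpl-4*, a more abundant gene of the same list, had 3019, 3345 and 3223 CPM and 2901, 3223 and 3223 CPM.

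The ribosomal protein genes had a median log2FC of 0.19 in ev worms, where 4 rose. The difference between the changes was called for 2 of the 80, against 4.22% of all genes tested. These were *rla-0* and *rpl-7*, which both rose in ev worms. *rla-0*, the stalk protein P0, went from 3223, 3223 and 3019 CPM to 4771, 5419 and 5419 CPM in ev worms and from 2731, 2801 and 3019 CPM to 3223, 3345 and 3019 CPM in *cco-1* RNAi worms (difference -0.55, adjusted P = 0.003, limma). Its values of 3019 CPM or more lay in the top ranks, where the same few figures recur across libraries. Its changes and their difference carry the limit given for *vit-2*, *vit-5* and *vit-6*.

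Of 32 proteasome genes, 26 had a log2FC above 0 (median 0.10) and the ages did not overlap, day 11 higher, in 14, against 8.13% of all genes tested. In 3 of the 32 they did not overlap with day 11 lower. The proteasome median in ev worms was 0.07. *pbs-1*, a subunit of the catalytic core ring, stood at 216, 181 and 252 CPM at day 9 and 297, 289.8 and 273 CPM at day 11 (log2FC 0.41, SE 0.11, 95% confidence interval 0.17 to 0.66). *K08D12.3* lies beside *pbs-1* on chromosome IV and gave 164, 148 and 186 CPM and 231, 238 and 229 CPM. Of 43 nuclear genes of oxidative phosphorylation, 37 had a log2FC above 0 (median 0.10), and the ages did not overlap, day 11 higher, in 19 and lower in 1, against 8.13% and 7.73% of all genes tested. By contrast, the 66 mitochondrial ribosome genes had a median of 0.02, with 4 of them not overlapping and higher. *cyc-2.1* (chromosome IV, 4747895 to 4749012), a cytochrome c, read 305, 289 and 382 CPM at day 9 and 475, 511 and 450.1 CPM at day 11 (log2FC 0.57, SE 0.10, 95% confidence interval 0.33 to 0.80). *mev-1*, a membrane subunit of complex II, read 48.0, 45.6 and 52.7 CPM and 67.7, 61.4 and 59.9 CPM (log2FC 0.36, SE 0.08, 95% confidence interval 0.19 to 0.54). The nuclear and the mitochondrial genes of the respiratory chain differed in sign, with medians of 0.10 and -0.47, and did so in ev worms too, with medians of 0.11 and -0.94.

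Gene length moved with these small differences. Genes were put into 5 bins of equal size by exonic length. In the shortest bin, up to 771 bases, the ages did not overlap with day 11 higher in 12.9% and lower in 3.099%. In the longest bin, 2257 bases or more, it was 3.14% higher and 16.42% lower. The median log2FC went from 0.056 in the shortest to -0.071 in the longest bin, and in ev worms from 0.091 to 0.0041. The median exonic length was 538 bases for the ribosomal protein genes, 767 for the mitochondrial ribosome genes, 919 for the nuclear respiratory chain genes, 1234.5 for the proteasome genes and 1333 for all genes tested. Of the 31 genes with a log2FC above 0.5, 24 fell in the shortest bin. The part of length in the result was not tested.

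Those 31 genes included, besides *rpl-43*, *rps-21*, *rpl-39* and *cyc-2.1*, 4 genes of a cluster named *F53A9*, the sperm genes *ssq-1*, *ssq-2*, *ssq-4*, *nspd-4* and *nspd-7*, and the collagens *col-96* and *col-124* (a list drawn up after the values were seen). *tbca-1*, a tubulin-binding cofactor, was at 21.3, 21.8 and 24.3 CPM at day 9 and 34.5, 34.8 and 30.5 CPM at day 11 (log2FC 0.54, SE 0.09, 95% confidence interval 0.34 to 0.75). Its mean in ev worms was 37.7 CPM at day 9 and 37.9 CPM at day 11, and the difference between the changes was called (0.54, adjusted P = 0.0206, limma). *csc-1*, a subunit of the chromosomal passenger complex of dividing cells, gave 71.7, 73.8 and 83.2 CPM and 106, 105 and 100.2 CPM (log2FC 0.44, SE 0.07, 95% confidence interval 0.28 to 0.59). The histone H3.3 genes *his-72* and *his-74* had higher values at day 11 without overlap, *his-74* with 123, 108 and 135 CPM and 173, 172 and 163 CPM (log2FC 0.47, SE 0.08, 95% confidence interval 0.29 to 0.65). The 22 sperm genes had medians of 0.16 in *cco-1* RNAi and 0.22 in ev worms.

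Genes of the endoplasmic reticulum stress response leaned the other way. Of 17 ER chaperone and sensor genes, the ages did not overlap with day 11 lower in 7, against 7.73% of all genes tested, and the median log2FC was -0.06. In ev worms their median was -0.22 and 5 of the 17 fell. The difference between the changes was called for 4 of the 17, each time higher in *cco-1* RNAi worms. Their median exonic length was 1965 bases, beside 1333 for all genes tested. *ire-1*, the sensor kinase, gave 181, 195.8 and 176 CPM and 149, 159 and 159 CPM (log2FC -0.24, SE 0.06, 95% confidence interval -0.38 to -0.10). The disulfide isomerase gene *pdi-1* gave 1135, 1219 and 1077 CPM and 946, 1017 and 977 CPM (log2FC -0.22, SE 0.06, 95% confidence interval -0.36 to -0.08). Among other single genes with the smallest P, polyubiquitin *ubq-1* was at 1103, 1111 and 1031 CPM and 861, 898 and 939 CPM (log2FC -0.27, SE 0.06, 95% confidence interval -0.40 to -0.13), and *pup-2*, a poly(U) polymerase, at 1036, 1011 and 861 CPM and 754, 799 and 773 CPM (log2FC -0.32, SE 0.08, 95% confidence interval -0.49 to -0.15).

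The 17 genes of the mitochondrial unfolded protein response had a median log2FC of -0.04, and 12 of 17 had a confidence interval within 0.5 of no change. *hsp-6*, the mitochondrial HSP70 chaperone, stood at 426, 550.2 and 443 CPM at day 9 and 391.99, 456 and 431 CPM at day 11 (log2FC -0.14, SE 0.10, 95% confidence interval -0.37 to 0.08). *atfs-1*, the transcription factor of this response, stood at 75.6, 79.0 and 76.2 CPM and 74.7, 74.3 and 75.0 CPM. *elt-2*, the GATA factor of the adult intestine, stood at 13.01, 12.03 and 13.9 CPM and 14.3, 12.8 and 12.57 CPM (log2FC 0.02, 95% confidence interval -0.21 to 0.26). Its change in ev worms was -0.18 and was not called, and the difference between the changes was 0.21 (adjusted P = 0.457, limma).

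The interaction was also positive for genes outside the lysosome. *sqst-1*, the autophagy receptor p62, read 422, 366 and 406 CPM at day 9 and 436, 391.99 and 422 CPM at day 11, and in ev worms 517, 562 and 543 CPM and 326, 367 and 342 CPM (difference 0.71, adjusted P = 6.14e-04, limma). The metallothionein *mtl-1* read 14.4, 16.53 and 19.6 CPM and 20.4, 23.4 and 22.2 CPM, and its ev values of 62.5, 68.6 and 66.0 CPM went to 43.5, 46.0 and 44.3 CPM (difference 0.92, adjusted P = 6.14e-04, limma). *perm-4*, a gene of the eggshell permeability barrier, read 2218, 1823 and 2067 CPM and 2586, 1964 and 2412 CPM, against 1268, 1068 and 1313 CPM and 685, 773 and 749 CPM in ev worms.

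The opposite difference, a lower change under *cco-1* RNAi, was smaller in size. Among the 8 genes of at least 10 CPM with the largest such difference it ranged from -0.84 for *grl-10* to -0.68 for *htas-1*. *grl-10* is the gene whose exons overlap *rpl-39*. *acdh-5*, an acyl-CoA dehydrogenase, was at 7.79, 8.55 and 8.39 CPM and 7.61, 7.60 and 6.62 CPM in *cco-1* RNAi worms and at 7.50, 7.29 and 7.03 CPM and 11.3, 12.2 and 12.1 CPM in ev worms (difference -0.80, adjusted P = 0.00324, limma). Histone genes rose in ev worms, where 12 of 30 were called (median 0.47), and had a median of 0.15 in *cco-1* RNAi worms. The difference between the changes was called lower under *cco-1* RNAi in 2 of 30 and higher in 1, against 1.18% and 3.04% of all genes tested. *his-48*, a replication-dependent histone gene, gave 7.42, 10.9 and 9.45 CPM and 7.19, 15.7 and 11.2 CPM in *cco-1* RNAi worms. It has near-identical copies, so part of its reads may not map uniquely and may be missing from these values.

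**Figure D5:**
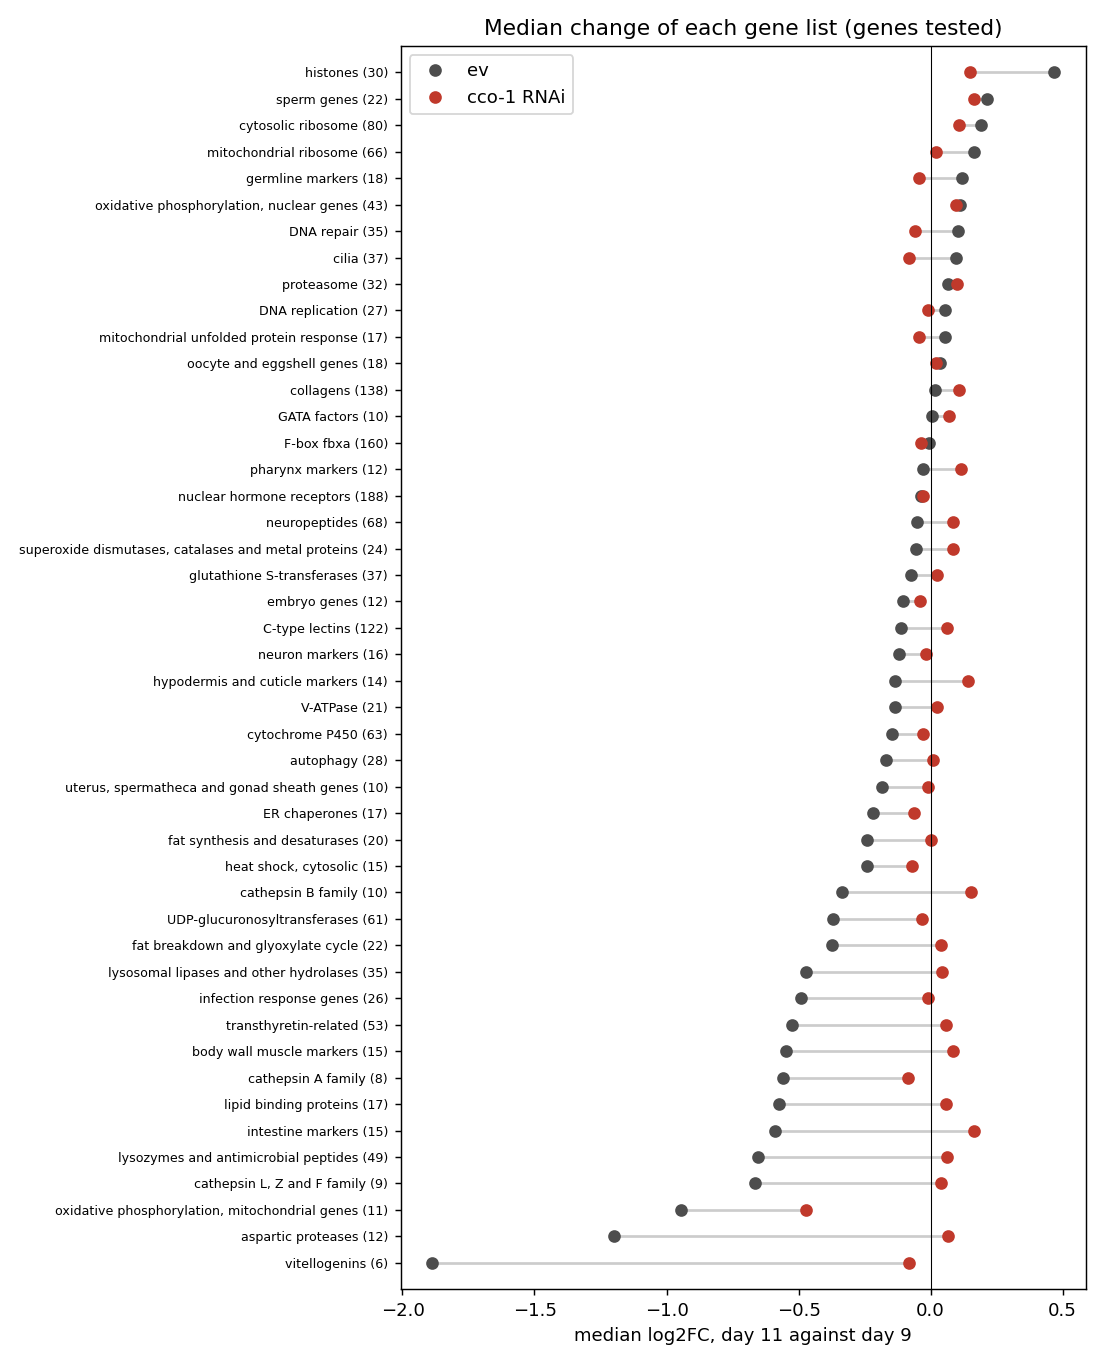
Median log2FC of day 11 against day 9 over the tested genes of each of 46 gene lists (number of genes in brackets), in ev (grey) and *cco-1* RNAi worms (red), ordered by the ev value. The *cco-1* RNAi medians stay between -0.09 and 0.16 except for the mitochondrial genes of oxidative phosphorylation (-0.47), whereas the ev medians reach from -1.89 for vitellogenins to 0.47 for histones.

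The last interval was also set against the earlier age change of *cco-1* RNAi worms. From day 1 to day 7, 4845 genes rose and 3757 fell in these worms, which was 30.8% and 23.9% of the genes tested. From day 9 to day 11 the genes that had risen had a median log2FC of -0.032, with 40.5% above 0. The genes that had fallen had a median of 0.026, with 57.8% above 0. With 1 library left out, the median of the risen genes ranged from -0.059 to -0.006, and that of the fallen genes from -0.0072, without replicate 1 of day 11, to 0.056. Relative to the day 9 mean, replicates 1 to 3 of day 11 gave -0.083, 0.028 and -0.033 for the risen genes and 0.084, -0.034 and 0.031 for the fallen genes. The days of the selection and the days compared share no library.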

How the data were processed

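The authors aligned reads of polyA-enriched whole-worm RNA with STAR, counted them per gene with htseq-count (union mode, without strand) and normalized them for limma-voom, and deposited CPM values for 18949 genes in 36 libraries. The submitters' notes name STAR 2.73a, edgeR 3.24.3 and the WBcel235 assembly. The deposited CPM values resembled quantile-normalized ones: the 10th and the 100th highest value were equal in all 36 libraries (3019 and 962 CPM), and no value was 0. The few highest values differed between libraries but came from a small shared set. Read counts and depth are not given in the sources used here. The deposited table also holds log2 fold changes and p-values of the authors' own comparisons, which were not used.

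A gene was kept when 3 or more of the 36 libraries reached 1 CPM (15713 genes), and log2(CPM + 1) was fitted with limma 3.58.1 (R 4.3.3, statmod 1.5.0). Fold changes are on this scale, which understates changes of low genes. Day 11 was compared with day 9 on 6 libraries within each RNAi group, since the *cco-1* RNAi groups had a wider spread than the others. The interaction used 12 libraries with array weights by group. A call needed a log2FC past 0.5 in either direction and an adjusted P (Benjamini-Hochberg) under 0.05. Nothing in the labels says which replicates came from separate cultures, so p-values measure the spread between these libraries. The code was tested on simulated data.

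The 46 gene lists, the comparisons and the rules were chosen with earlier results of these data known. Named genes were those of smallest P without overlap between days and with 10 CPM or more on average in the higher day, the members of each list with the largest change and the most abundant, genes named in the paper, those with the widest spread between replicates, and those with the largest changes in ev worms and in the interaction. Others were named after their values were seen (*ctb-1*, *ctc-2*, *rpl-7* and the genes past 0.5 on the log2 scale). Gene positions are from the WBcel235 annotation. Alternatives were another pseudocount, filter, normalization, threshold or set of libraries, a replicate block, and each library left out. Figures were drawn with matplotlib 3.10.9.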

Additional observations from a re-analysis of the deposited data

Results flagged for a closer look

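The day 9 to 11 change differed between *cco-1* RNAi and ev worms, by a test of the difference itself (limma, 12 libraries), for 478 genes with the higher change under *cco-1* RNAi and for 185 with the lower one. The largest positive differences on the log2 scale among genes of at least 10 CPM were 2.23 for *C17F4.7*, 1.96 for *vit-6*, 1.92 for *asp-1*, 1.88 for *vit-2*, 1.82 for *K06G5.1*, 1.77 for *C23H5.8*, 1.76 for *C01B10.6* and 1.70 for *vit-5*. The largest negative differences were -0.84 for *grl-10*, -0.80 for *acdh-5*, -0.78 for *H20J04.9*, -0.72 for *C04G6.6*, -0.71 for *F46F5.6*, -0.70 for *taf-11.3*, -0.68 for *fbxa-123* and -0.68 for *htas-1*. *C17F4.7* stood at 186, 81.5 and 151 CPM at day 9 and at 258, 114 and 190.5 CPM at day 11 in *cco-1* RNAi worms, and at 161, 204 and 176 CPM and then 54.7, 47.2 and 50.5 CPM in ev worms. All 16 of these genes lost the call under at least 1 alternative setting, and none changed direction. Groups of 3 libraries were not searched for single outlying samples.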

How the results depend on the processing

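The call of no change in *cco-1* RNAi worms gave 0 genes under other pseudocounts, filters, normalizations and thresholds, 29 with all 36 libraries, and 0 to 2 with a library left out (2 without day 9 replicate 3). For ev worms the 1493 genes became 2456 with a pseudocount of 0.1, 542 with 5 (18 higher, 524 lower), 7417 on adjusted P alone (4421 higher, 2996 lower) and 171 above a log2FC of 1, and ranged from 1415 to 1754 with a library left out. The 663 interaction genes (478 positive, 185 negative) became 287 with a pseudocount of 5 (266 and 21), 1586 with 36 libraries (1107 and 479) and 94 above a log2FC of 1 (93 and 1). With a library left out they ranged from 116 (107 and 9, without *cco-1* day 11 replicate 3) to 1768 (1210 and 558, without *cco-1* day 11 replicate 2). The negative calls thus nearly vanished under some of these settings. Without replicate 2 of both *cco-1* RNAi ages, chosen after seeing the data, there were 1096. They numbered 170 without *cco-1* day 9 replicate 3, 281 and 1486 without replicate 1 of *cco-1* day 11 and day 9, 309 without *cco-1* day 9 replicate 2, 440 and 387 without ev day 9 replicates 2 and 3, and 328 without ev day 11 replicate 3.

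Same-numbered day 9 and day 11 libraries correlated at 0.65, 0.66 and -0.029 in *cco-1* RNAi worms, and at -0.052, -0.089 and -0.0054 in ev worms. The main fits did not take replicate numbers to pair samples, so the shared order of replicates 1 and 2 counts there as spread. Replicates 1 and 2 of *cco-1* RNAi worms correlated best with their own number and replicate 3 did not. With the replicate block, 35 genes were called in *cco-1* RNAi worms (29 higher, 6 lower) and 1693 in the interaction.

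With a pseudocount of 5, added after seeing the data, the ev steps gave 1447 (days 3 to 5), 565 (5 to 7) and 3126 (7 to 9) genes, and the *cco-1* RNAi steps from day 1 gave 4577, 578, 153 and 2370. On log2(CPM + 5) the median spread was 0.073 and 0.070 in *cco-1* RNAi worms and 0.047 and 0.049 in ev worms at days 9 and 11. The median of the 1082 genes lower at day 11 in ev ranged from -0.14 to 0.15 in *cco-1* RNAi worms with a library left out, that of the 411 genes higher there from 0.0075 to 0.13, and those of the genes that had risen or fallen from day 1 to day 7 from -0.059 to -0.006 and from -0.0072 to 0.056. The cause of these shifts was not tested.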
